A study of Mus musculus with 6 samples.

Results

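The genes described here encode the proteasome, the protease complex that degrades ubiquitin-tagged proteins in the cytosol and nucleus. They were chosen by name: protein-coding genes of the deposited count table whose symbol is Psm, a letter from a to g and a digit, with a mean of at least 1 CPM (the count scaled to the library total) over the 6 libraries. The pattern matched 56 of 56748 genes. Of these, 51 were protein-coding and 48 passed the level. There were 7 genes of the alpha ring (Psma), 9 of the beta ring (Psmb) and 7 with Psmc symbols (the base ATPases). Another 14 had Psmd symbols, for the lid, other parts of the regulatory particle and some chaperones of its assembly. The rest were 7 activators with their inhibitor (Psme and Psmf1) and 4 assembly chaperones (Psmg). The pattern also takes in Psmc3ip, a recombination cofactor, and Psme3ip1, a partner of an activator, neither of which is a proteasome subunit. Psmb8, at a mean of 1.38 CPM, was just inside the level, and Psmb9, at 0.929 CPM, was just outside it, as were Psma8 at 0.265 CPM and Psmb11 at 0.0602 CPM.

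RNA was sequenced from the cerebellum of 6 C57BL/6J mice aged 90 to 120 days. Methylmercury (MeHg), an organic mercury compound that reaches the fetal brain, was given to the dams in drinking water at 0.2 ppm throughout gestation and ended at birth. The controls came from dams that received 0 ppm. Each group had 3 mice, labelled as biological replicates, and no dam or litter is named in the labels. Some mice may share a dam, and the p-values speak only to the spread among these 6. Sex was labelled female, female and male for control replicates 1, 2 and 3, and female, male and female for the MeHg replicates.

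In the proteasome, the alpha rings gate the entrance to a barrel and the beta rings inside it carry the protease sites. A base of ATPases unfolds the substrate and feeds it in, while the lid receives and deubiquitinates it. Cells can exchange catalytic beta subunits for immunoproteasome forms and the regulatory particle for other activators. When proteasome activity falls, the transcription factor encoded by Nfe2l1 is known to raise the subunit genes together through antioxidant response elements in their promoters, and neurons rely on the complex for synaptic and damaged proteins.

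The libraries held 14116088 to 20303833 counts. The library of control replicate 2, labelled female, had 0.249 CPM of the female-specific RNA Xist, against 772 CPM in control replicate 1, and 4455 counts over Y-linked genes, so it goes against its label. MeHg replicate 1, labelled female, had 748 CPM of Xist and also 435 Y-linked counts, against 10 and 1 in the other libraries with Xist. Marker genes of several cell types also differed between the groups. The 12 granule neuron markers summed to 7698 to 8187 CPM in controls and 5667 to 6511 CPM in MeHg libraries, and 6 of the 12 were called lower. Purkinje cell markers summed to 8068 to 8912 and 6265 to 8055 CPM, so the labelled tissue carries its defining neuron markers in every library. The 8 ependymal markers summed to 19.3 to 30.4 and 53.9 to 86.6 CPM, with 4 called higher, and choroid plexus markers to 155 to 3139 and 2595 to 10271 CPM. The 9 oligodendrocyte markers were all above 0, with a median of 0.29, and summed to 5342 to 6107 and 6019 to 8204 CPM. By edgeR 0 Purkinje, 0 choroid plexus and 0 oligodendrocyte markers were called, with 3, 7 and 6 under an unadjusted p of 0.05. Brainstem markers summed to 269 CPM in MeHg replicate 2 and to 16.9 to 32.8 CPM in the others. No marker of these lists was at 0 in all libraries. The part of these shifts in the differences below was not tested, and in whole tissue fewer cells of a type cannot be told apart from less RNA per cell.

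The antioxidant response element is the sequence through which Nfe2l1 acts, so the proximal promoters were searched for its core, TGACNNNGC, on both strands. Windows of 250 bases before to 50 after the annotated start came from RefSeq on GRCm38.p6, a build other than the mm39 of the counts, and 41 of the 48 genes had at least 1 window. The core was in 6 of their 45 windows, 13.3%, against 12.4% of all 32851 windows. These stretches show the match in capitals, with up to 30 bases on each side and nothing beyond the match where it reaches the start, written 5′ to 3′ on the strand of the gene. In Psmc6, Psmd12 and Psme4 the capitals are the reverse complement of the core. The 6 genes are shown because they are the only ones with a match among the 41 searched. Psmb1, Psmb2, Psmb7, Psmc3, Psmd3, Psmd7 and Psmg2 had no window and were not searched.
Psmb5, chr14:54618004-54618072, minus strand: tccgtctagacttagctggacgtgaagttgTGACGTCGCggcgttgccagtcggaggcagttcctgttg
Psmb6, chr11:70525318-70525356, plus strand: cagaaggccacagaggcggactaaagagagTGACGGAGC
Psmc6, chr14:45329574-45329635, plus strand: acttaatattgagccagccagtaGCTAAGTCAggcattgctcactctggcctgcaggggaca
Psmd12, chr11:107479278-107479319, plus strand: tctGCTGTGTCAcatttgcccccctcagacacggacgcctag
Psmd9, chr5:123228129-123228189, plus strand: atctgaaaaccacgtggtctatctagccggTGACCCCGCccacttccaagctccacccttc
Psme4, chr11:30771738-30771776, plus strand: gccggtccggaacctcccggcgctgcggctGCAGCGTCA

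The match began 47 bases before the start in Psmb5, 9 in Psmb6 and 31 in Psmd9, and 7 in Psme4, 227 in Psmc6 and 247 in Psmd12. The log2 fold changes of these genes, MeHg against control, spread over both directions: 0.16 in Psmd12, 0.14 in Psmb5, 0.12 in Psmb6, 0.06 in Psmd9, −0.08 in Psmc6 and −0.35 in Psme4. None of these passed the test described next. Other motifs were searched on both strands in the same windows. The GC box GGGCGG was in 24 windows (53.3%, against 35.7% of all), the CCAAT box CCAAT in 14 (31.1%, against 37.4%), and the interferon-stimulated response element core, GAAA, any 2 bases and GAAA, in 5 (11.1%, against 3.44%), those of Psmb3, Psmd4, Psmd9, Psme1 and Psmg4. A match is a string of letters and no evidence of binding.

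MeHg against control was tested for 16859 genes at once, including all 48 proteasome genes, by the quasi-likelihood test of edgeR, with Benjamini-Hochberg adjustment and a call at an adjusted p under 0.05. Another gene of the table overlapped the span of 24 of the 48, and in 8 of them its counts were at least 10% of the gene's own; these are named beside the values below where a result touches them. Levels by library are CPM on the scaled library sizes, and fold changes are log2, MeHg minus control. None of the 48 genes was called, against 2.36% of all genes tested (0.575% higher and 1.79% lower). At an unadjusted p under 0.05 there were 7 (6 higher and 1 lower), which is 14.6%, against 24.5% of all genes. Under DESeq2, which called 8.27% of all genes, 2 were called, Psme4 lower and Psme1 higher, and limma-voom called 0. The smallest adjusted p by edgeR was 0.0519, for Psme4, and 3 genes were under 0.1, as were 9.8% of all genes.

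The differences were small and mostly in 1 direction. The log2 fold change was above 0 in 39 of the 48 genes (81.2%), against 51.1% of all genes tested, and its median was 0.11, a fold of 1.08, against 0.01 over all genes. The genes share libraries and do not count as replicates. The median SE was 0.08, against 0.13 over all genes tested, so the shares that follow compare genes measured with unlike error. In 38 genes (79.2%) the change was within 0.2 of 0 in either direction, against 54.8% of all genes, and in 39 the whole 95% confidence interval lay within 0.5 of 0. All 3 MeHg libraries were above all 3 controls in 18 genes, where 13.9% of all genes tested did so, and below them in 2 genes, where 15.5% did so. Together these are 41.7% of the proteasome genes and 29.4% of all genes.

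**Figure D1:**
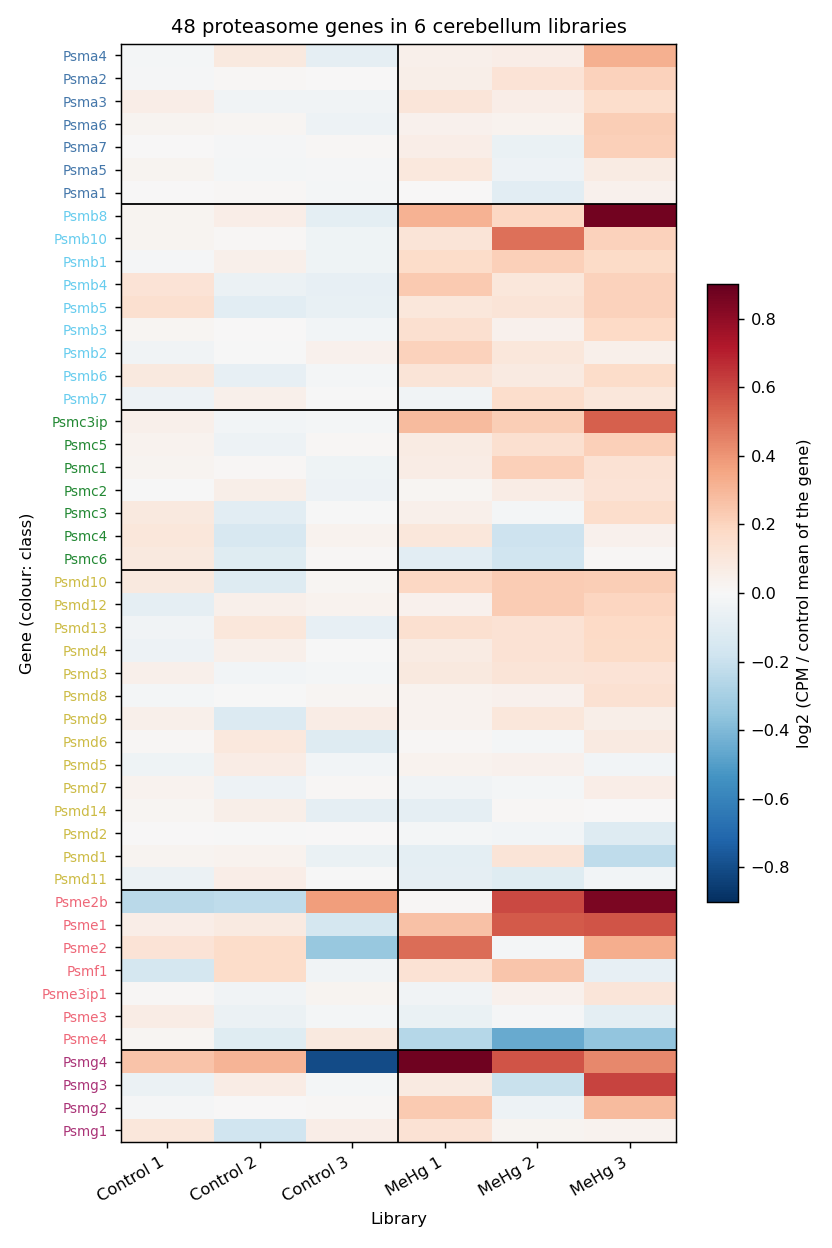
Each row is a proteasome gene, coloured by class and ordered within it by fold change, and each column a library. The colour is the log2 of the CPM over the mean of the 3 controls for that gene. Most rows are pale red in the MeHg columns, MeHg 3 above all, while Psme4 is blue in all 3.

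The shift was uneven between the exposed mice. The median over the 48 genes of log2 CPM relative to the control mean was 0.07, 0.06 and 0.16 in MeHg replicates 1, 2 and 3, and 0.02, 0.00 and −0.02 in the controls. MeHg replicate 3 was the highest of the 6 libraries in 24 of the 48 genes, against 7 for MeHg replicate 1 and 9 for MeHg replicate 2. The share of all genes highest in each library was not counted. MeHg replicate 3 also had the highest sums of choroid plexus markers (10271 CPM, against 155 to 4459 CPM in the others), ependymal markers (86.6 CPM) and endothelial markers (356 CPM). Sums of oligodendrocyte (8204 CPM), microglia (200 CPM) and brainstem markers (269 CPM) were highest in MeHg replicate 2. The part of these markers in the higher proteasome values of MeHg replicate 3 was not tested. The 48 genes took 0.304%, 0.3001% and 0.298% of all counts in controls and 0.319%, 0.317% and 0.335% in MeHg libraries. Those groups do not overlap, but the shares are of unscaled library totals. The library scaling factors also differed between groups, at 0.980 to 0.989 in controls and 1.00 to 1.03 in MeHg libraries. Without MeHg replicate 3 the median fold change was 0.09, with 37 genes above 0, and without control replicate 2 it was 0.10, with 38 above 0.

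**Figure D2:**
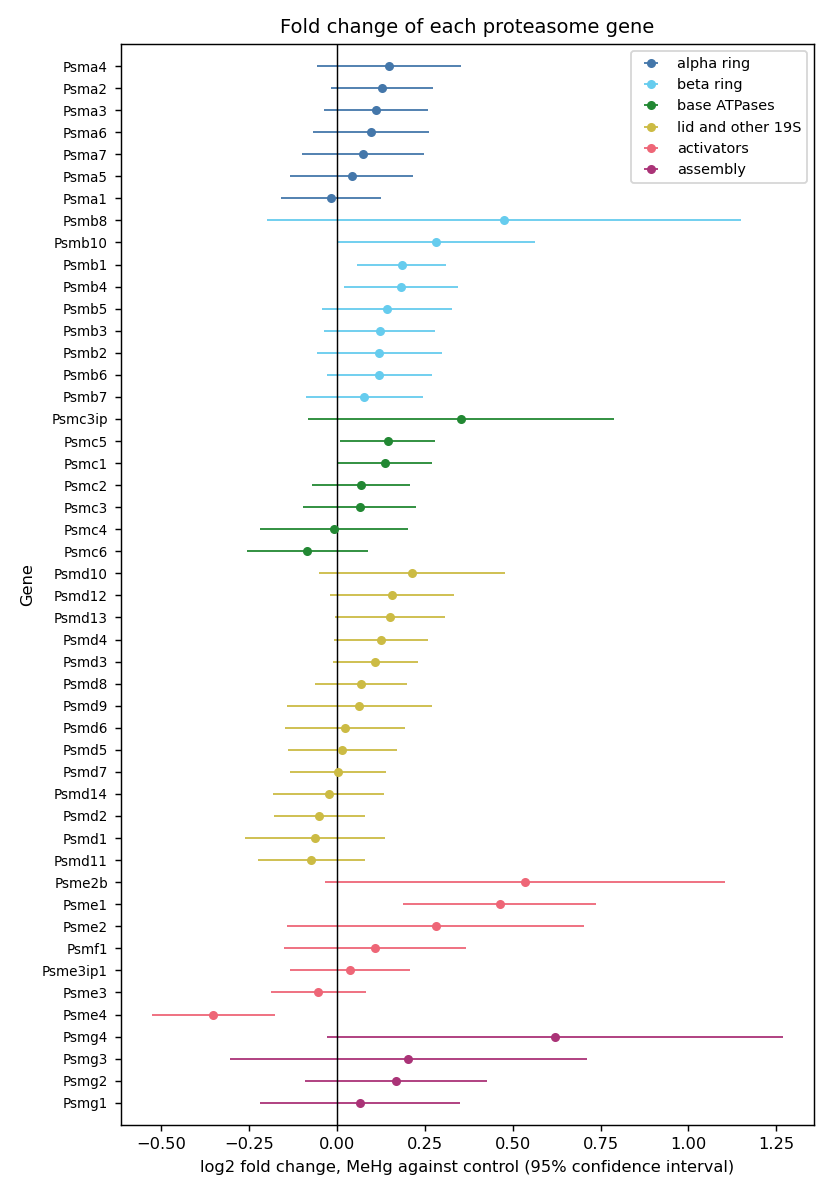
Points are the log2 fold changes of the 48 genes (MeHg against control, 3 mice each) and bars their 95% confidence intervals, by class. Points gather just right of 0. In 7 genes, among them Psme4, Psme1 and Psmb1, the interval is clear of 0, and that of Psmg4 reaches farthest, to 1.27.

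The alpha ring was the most even class. Of its 7 genes, 6 were above 0, with a median of 0.10 and a range of −0.02 to 0.15. Psma2 measured 71.8, 72.6 and 72.2 CPM in controls and 74.8, 78.7 and 83.5 CPM in MeHg libraries. All exposed mice were above all controls, by 0.13 ± 0.06 (SE; adjusted p = 0.252 by edgeR). Psma3 measured 64.6, 60.8 and 60.7 CPM, then 67.0, 64.6 and 69.4 CPM, a difference of 0.11 ± 0.07 (adjusted p = 0.333), with 17.4% as many counts for an antisense gene. Psma4 measured 60.1, 64.7 and 57.6 CPM, then 62.8, 63.5 and 76.0 CPM, so its 0.15 ± 0.09 came with overlapping groups and 1 high exposed mouse. Psma6 was apart between groups at 0.10 ± 0.07, Psma7 and Psma5 overlapped at 0.07 and 0.04, and Psma1 was at −0.02 ± 0.06. Reads of AW209491, on the same strand within the span of Psma2, equalled 29.7% of its own counts, and the handling of reads in shared sequence is unknown here.

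The beta ring was above 0 in all 9 genes, with a median of 0.14. Its structural subunit Psmb1 had the smallest adjusted p of the core: 88.7, 92.0 and 86.8 CPM in controls and 100, 103 and 101 CPM in MeHg libraries. The groups were apart by 0.18 ± 0.06, with a 95% interval of 0.06 to 0.31 and an adjusted p of 0.0985 by edgeR. Psmb4, another structural subunit, measured 113, 100 and 98.7 CPM, then 122, 112 and 120 CPM, and its groups overlapped through control replicate 1 at 0.18 ± 0.07 (adjusted p = 0.165). Psmb3 and Psmb2 were apart between groups, both at 0.12.

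None of the 3 constitutive catalytic subunits was called. Psmb5, which cuts after hydrophobic residues, measured 64.6, 54.8 and 55.8 CPM in controls and 62.6, 63.4 and 67.5 CPM in MeHg libraries (0.14 ± 0.08, adjusted p = 0.320). Psmb6, which cuts after acidic residues, measured 77.5, 69.5 and 72.2 CPM, then 79.2, 77.3 and 81.8 CPM (0.12 ± 0.07). In both genes control replicate 1 reached into the exposed range. Psmb7, which cuts after basic residues, measured 53.7, 57.0 and 55.3 CPM, then 54.2, 61.6 and 59.5 CPM (0.08 ± 0.07), with counts of Nek6 on the opposite strand at 39.3% of its own.

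The immunoproteasome subunits replace these 3 where interferon acts, and in brain they are best known from microglia and vessel cells. Psmb8 was close to the detection limit, with counts of 23, 24 and 15 in controls and 23, 20 and 31 in MeHg libraries. These are 1.17, 1.20 and 1.08 CPM against 1.42, 1.31 and 2.09 CPM, apart between groups at 0.48 ± 0.30 but with an interval of −0.20 to 1.15. Psmb10 measured 15.0, 14.8 and 14.3 CPM, then 16.0, 20.7 and 17.0 CPM, with MeHg replicate 2 the highest (0.28 ± 0.12, adjusted p = 0.202). Psmb9, under the level for inclusion, had counts of 13, 23 and 6, then 16, 14 and 21, in groups that overlapped (0.52 ± 0.41, adjusted p = 0.472). Counts of Tap1 on the opposite strand were 351% of those of Psmb9. Microglia markers summed to 145 to 157 CPM in controls and 166 to 200 CPM in MeHg libraries, and endothelial markers to 237 to 268 and 283 to 356 CPM. All 10 and all 9 of those genes were above 0, with 0 and 1 called. Their part in the immunoproteasome values was not tested.

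Per gene length, the constitutive form was higher in both pairs compared, by very different ratios. In deposited FPKM (fragments scaled to gene length and library total), Psmb5 exceeded its replacement Psmb8 by 208, 172 and 195 times in controls and 165, 182 and 122 times in MeHg libraries. The means were 192 ± 18.3 and 156 ± 31.3 (SD, n = 3 each), with groups that overlapped. Psmb7 exceeded Psmb10 by 1.79, 1.92 and 1.93 times in controls and 1.69, 1.48 and 1.74 times in MeHg libraries. That ratio was lower in every exposed mouse, at a mean of 1.64 ± 0.140 against 1.88 ± 0.0786 (SD, n = 3 each). No test was made of these ratios, which depend on the deposited lengths. Psmb5 and Psmb8 have 899 and 3381 bp, and Psmb7 and Psmb10 have 3421 and 1705 bp. Without scaling to length, control means were 58.4 and 1.15 CPM for Psmb5 and Psmb8. They were 55.3 and 14.7 CPM for Psmb7 and Psmb10, so in CPM the ratios of the pairs were less far apart.

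Of the 7 Psmc genes 5 were above 0, with a median of 0.07. Without Psmc3ip, the 6 base ATPases of the motor ring had 4 above 0, also with a median of 0.07. Psmc5 measured 158, 149 and 156 CPM in controls and 162, 170 and 179 CPM in MeHg libraries, apart by 0.15 ± 0.06 (adjusted p = 0.179 by edgeR). Psmc1 measured 135, 134 and 129 CPM, then 139, 154 and 146 CPM, apart by 0.14 ± 0.06 (adjusted p = 0.195). The other ATPases overlapped: Psmc2 at 0.07, Psmc3 at 0.06 (with opposite-strand counts of Slc39a13 at 36.3% of its own), Psmc4 at −0.01 and Psmc6 at −0.08. For Psmc4 the lowest library of each group was replicate 2, at 79.0 and 76.9 CPM, and its interval ran from −0.22 to 0.20. Psmc3ip, which is no ATPase, measured 3.30, 3.14 and 3.16 CPM, then 3.90, 3.73 and 4.65 CPM (0.35 ± 0.19, adjusted p = 0.295), with counts of Mlx on the opposite strand 666% of its own. Without Psmc3ip and Psme3ip1 the median over 46 genes was also 0.11, with 37 above 0, a check chosen after seeing the data.

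The Psmd genes, of the lid and other parts of the regulatory particle with some of its chaperones, had the lowest class median. Of 14 genes 10 were above 0, with a median of 0.04 and a range of −0.07 to 0.21, and none was under an unadjusted p of 0.05. Psmd13, a lid subunit, measured 61.0, 67.0 and 59.5 CPM in controls and 69.0, 68.6 and 70.8 CPM in MeHg libraries (0.15 ± 0.07, adjusted p = 0.216). Psmd4, a receptor for ubiquitin chains, measured 89.3, 95.5 and 92.3 CPM, then 97.1, 101 and 104 CPM (0.13 ± 0.06, adjusted p = 0.230). Psmd3 measured 137, 131 and 131 CPM, then 141, 144 and 145 CPM (0.11 ± 0.05, adjusted p = 0.241). In all 3 genes the exposed mice were above all controls, as in Psmd8 and in Psmd10, a chaperone of base assembly (12.2, 10.6 and 11.6 CPM, then 13.0, 13.5 and 13.4 CPM). Psmd12 overlapped at 0.16 ± 0.08. Counts of Sirt3 on the opposite strand equalled 39.6% of those of Psmd13.

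Several other Psmd genes were level. Psmd14, the deubiquitinase that removes ubiquitin chains at the entrance, measured 59.2, 60.6 and 55.3 CPM in controls and 55.1, 58.9 and 58.5 CPM in MeHg libraries (−0.02 ± 0.07). Psmd7, its partner, differed by 0.00 with an interval of −0.13 to 0.14. Psmd2, a large scaffold subunit, was nearly fixed in controls at 244, 243 and 244 CPM and measured 241, 240 and 225 CPM after MeHg. Those groups are apart, yet the difference was −0.05 ± 0.06. Psmd1, the other scaffold, spread more widely among exposed mice, at 84.0, 96.9 and 76.3 CPM against 90.9, 91.6 and 85.8 CPM (−0.06 ± 0.09). Psmd11 was at −0.07, and Psmd5, Psmd6 and Psmd9 were between 0.02 and 0.06.

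The activators differed most among themselves. Psme4 encodes PA200, a single-chain nuclear cap of the barrel known for histone degradation, and lies on the plus strand at chr11:30721726-30830361 (mm39). It measured 94.95, 87.0 and 100 CPM in controls and 78.7, 68.7 and 73.5 CPM in MeHg libraries. Every exposed mouse was below every control. The log2 fold change was −0.35 ± 0.08, a fold of 0.784, with an interval of −0.53 to −0.18 and an adjusted p of 0.0519 by edgeR. It was called with the replicate number as a block (adjusted p = 0.0407, where 3.84% of all genes were called), and by DESeq2 (adjusted p = 0.00942). With an offset for gene length it was −0.27 (adjusted p = 0.119), and over the 21 alternatives it ranged from −0.41 to −0.23, with adjusted p from 0.0014 to 0.232. The granule neuron markers above were lower in the same libraries, and their part in this value was not tested.

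Psme1 encodes the alpha subunit of PA28, the interferon-inducible ring that opens the barrel, and lies on the plus strand at chr14:55815580-55818986. It measured 16.7, 17.0 and 14.4 CPM in controls and 19.2, 23.5 and 23.7 CPM in MeHg libraries, with no overlap. The difference was 0.46 ± 0.12, a fold of 1.38, with an interval of 0.19 to 0.74 and an adjusted p of 0.0721 by edgeR. By DESeq2 it was called (adjusted p = 0.0308), and over the 21 alternatives the adjusted p ran from 0.0179 to 0.270. Emc9 overlaps it on the opposite strand with counts 153% of its own and a difference of 0.24 ± 0.09. The sources used here do not give the strand setting of the counting, so reads of the pair cannot be told apart.

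Psme2, the beta subunit of the same ring, measured 9.59, 9.88 and 6.97 CPM in controls and 12.5, 8.70 and 11.1 CPM in MeHg libraries, and the groups overlapped (0.28 ± 0.19, adjusted p = 0.391). Psme2b, a near copy, measured 5.22, 5.29 and 8.05 CPM, then 6.24, 9.36 and 11.1 CPM (0.53 ± 0.25, adjusted p = 0.230). How reads were split between the pair is uncertain. Psme3, the nuclear PA28 gamma, was level at 103, 95.03 and 97.1 CPM and 94.5, 97.7 and 92.6 CPM (−0.05 ± 0.06). Psmf1, an inhibitor of the barrel, overlapped at 0.11 ± 0.11, and Psme3ip1 at 0.04 ± 0.08, with Rspry1 on the opposite strand at 78.4% of its counts.

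The assembly chaperones, which pair up to build the alpha ring, were all above 0, with a median of 0.19 and wide errors. Psmg4 measured 4.06, 4.19 and 1.94 CPM in controls and 6.24, 5.04 and 4.58 CPM in MeHg libraries. Control replicate 3, with 27 counts, was far below the others, and the difference was 0.62 ± 0.29 with an interval of −0.03 to 1.27. Without that library it was 0.36. Psmg2 measured 16.8, 17.1 and 17.1 CPM, then 20.03, 16.5 and 20.8 CPM (0.17 ± 0.11, adjusted p = 0.405). Psmg3 measured 4.57, 4.94 and 4.67 CPM, then 5.01, 4.12 and 7.21 CPM, so that its 0.20 ± 0.22 rested on MeHg replicate 3 and was −0.05 without it. Psmg1 was at 0.07 ± 0.13.

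Levels per gene length differed widely between genes and classes. In control FPKM the class medians were 38.0 for the Psmc genes (41.1 without Psmc3ip), 24.1 for the alpha ring, 21.0 for the beta ring, 19.5 for the lid and other parts, 7.04 for the chaperones and 6.95 for the activators. Highest per length were Psmc5 at 104 ± 3.24 FPKM (SD, n = 3), Psmc1 at 64.5 ± 1.62 FPKM, Psmb5 at 61.1 ± 5.78 FPKM and Psmd2 at 56.7 ± 0.197 FPKM. At the other end were Psmb8 at 0.319 ± 0.0169 FPKM, Psmg3 at 1.53 ± 0.0587 FPKM and Psmc3ip at 1.65 ± 0.0469 FPKM. Subunits present in equal number in the barrel had unequal FPKM, a measure that rests on the deposited lengths. Psma3 (3894 bp) and Psma6 (1234 bp) had control means of 62.0 and 63.8 CPM. The match of these lengths to the expressed RNA was not tested. In FPKM the alpha ring ran from Psma3 at 15.0 to Psma6 at 48.5. Only Psma7, Psma4 and Psma1 overlapped their neighbours in that order. In the beta ring and among the base ATPases no neighbours overlapped. In the lid Psmd6, Psmd12, Psmd14 and Psmd13 ran into each other, as did Psmd10 and Psmd5. Among the activators Psme3 stood first at 31.4 FPKM, and Psme2 last at 4.69 FPKM. The coefficient of variation among controls had a median of 3.96% over the 48 genes and 8.63% over all genes tested. The latter had a lower median control level, at 4.54 FPKM, and were not matched for level.

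**Figure D3:**
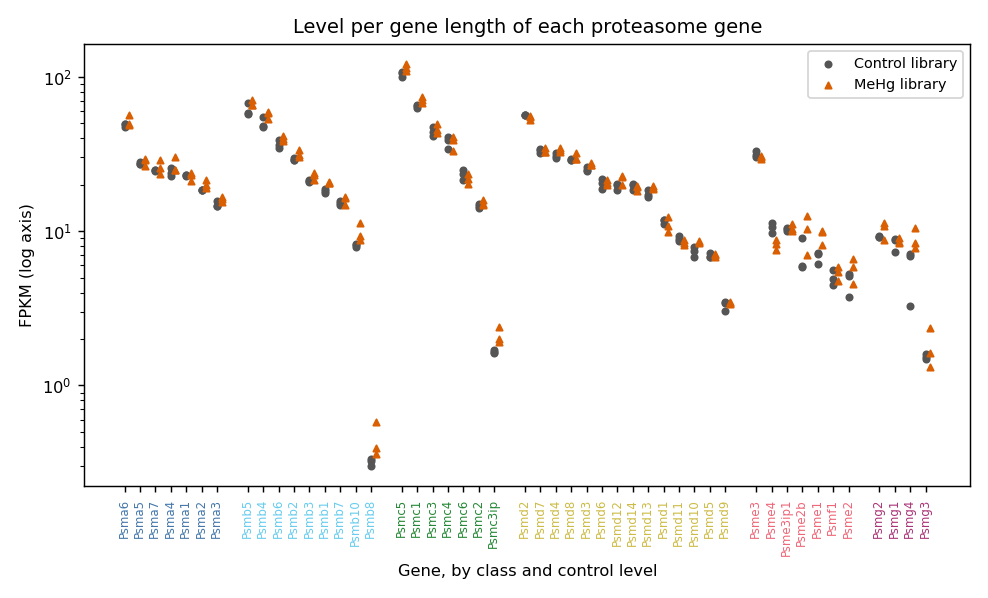
The vertical axis is the deposited FPKM on a log scale, and each gene has 3 control circles and 3 MeHg triangles, ordered by control mean within each class. Control means run from 0.319 FPKM for Psmb8 to 61.1 FPKM for Psmb5 in the beta ring, and from 1.65 FPKM for Psmc3ip to 104 FPKM for Psmc5 among the Psmc genes.

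Longer proteasome genes had lower fold changes. Across the 48 genes the log2 fold change and the gene length of the deposited table had a Pearson correlation of −0.58 and a Spearman correlation of −0.51, and −0.53 and −0.48 without Psme4. Over all genes tested the values were −0.10 and −0.21. These are correlations across genes, which share libraries and are not independent replicates. The 38 genes under 4000 bp had a median of 0.12, with 33 above 0, and the 10 longer genes a median of 0.04, with 6 above 0. Over all genes tested the medians were 0.07 for the shorter and −0.05 for the longer, with 61.1% and 41.6% above 0. The median length was 2804 bp for the proteasome genes and 4105 bp for all. With an offset per library for gene length the proteasome median was 0.05, with 35 genes above 0, and with length and GC content together 0.05, with 34 above 0. By class, the length offset gave medians of 0.03 in the alpha ring, 0.05 in the beta ring, the base and the lid, 0.16 in the activators and 0.11 in the chaperones. The beta ring was above 0 in 9 of 9 genes under both offsets, with medians of 0.05 and 0.06 against 0.14 without an offset. Over the 21 alternatives the lowest values of Psmb5 and Psmb6 were 0.00039 and 0.016, so a sign above 0 can be a value at almost 0.

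**Figure D4:**
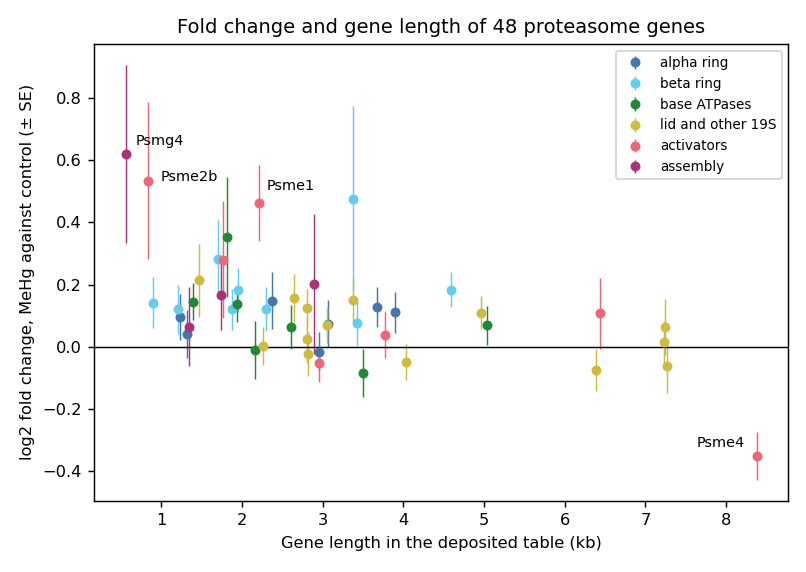
The horizontal axis is gene length in the deposited table (kb) and the vertical axis the log2 fold change with its SE, coloured by class. Points decline from Psmg4, at 0.62, to Psme4, the longest gene, at −0.35.

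Genes that work with the proteasome were read from 5 lists of 60 symbols, 59 of them tested. Of these, 28 were above 0 with a median of −0.01. Called were 2 higher and 1 lower, 5.08%, against 2.36% of all genes. Calls were lost in 9 of 21 alternatives for Mafk and 12 for Ecpas, with the direction kept in all. For both genes these include leaving out any 1 library other than MeHg replicate 2. Ubb, a polyubiquitin gene, measured 809, 770 and 740 CPM in controls and 799, 920 and 932 CPM in MeHg libraries, with overlap (0.19 ± 0.08, adjusted p = 0.194 by edgeR). Ubiquitin repeats are alike between genes, and the split of their reads is uncertain.

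Among regulators of the subunit genes, Mafk, a small partner protein for factors that bind antioxidant response elements, rose from 6.29, 6.19 and 6.68 CPM to 9.58, 10.6 and 11.1 CPM (0.71 ± 0.14, adjusted p = 0.0433 by edgeR). It lies at chr5:139777268-139788408, with counts of Tmem184a on the opposite strand at 13.4% of its own. Nfe2l1 itself measured 274, 285 and 259 CPM, then 299, 351 and 313 CPM, apart between groups at 0.24 ± 0.08 but not called (adjusted p = 0.112). Ddi2, the protease that activates its product, was at −0.12 ± 0.09, and Nfe2l2 was level at 0.02 ± 0.11. Irf1, an interferon-response factor that drives immunoproteasome genes, measured 2.28, 2.00 and 1.65 CPM, then 2.97, 2.94 and 3.51 CPM, apart at 0.66 ± 0.23 (adjusted p = 0.132). Of the 9 regulators 6 were above 0.

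Among proteins that bind the proteasome, Ecpas, a large adaptor that tethers it to membranes and motors, fell from 154, 148 and 159 CPM to 125, 129 and 118 CPM (−0.31 ± 0.06, adjusted p = 0.0433 by edgeR). It lies at chr4:58798911-58912749 on the minus strand, and with the length offset it was at −0.18 with an adjusted p of 0.112. Ube3a, a ligase found on the proteasome, measured 135, 139 and 129 CPM, then 104, 118 and 100 CPM, apart at −0.32 ± 0.07 (adjusted p = 0.0545). With the length offset it was at −0.12 (adjusted p = 0.315), and with length and GC content at −0.047 (adjusted p = 0.688). Over the 21 alternatives it ranged from −0.39 to −0.047, with adjusted p from 0.00225 to 0.688, and was called in 6. It shares its span with the antisense gene Snhg14, whose counts were 122% of its own. The chaperone Pomp, which matures the barrel, measured 67.5, 72.3 and 71.7 CPM, then 74.1, 74.1 and 87.1 CPM (0.15 ± 0.08, adjusted p = 0.274). Sem1, Adrm1, Uchl5 and Usp14, which complete the regulatory particle or edit ubiquitin on it, were at 0.19 ± 0.15, 0.07 ± 0.09, 0.08 ± 0.10 and −0.04 ± 0.09, all with overlapping groups. Usp14 and Uchl5 share their spans with Thoc1 and Gm29170, whose counts were 58.0% and 39.2% of their own. In this list 5 of 12 were above 0.

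**Figure D5:**
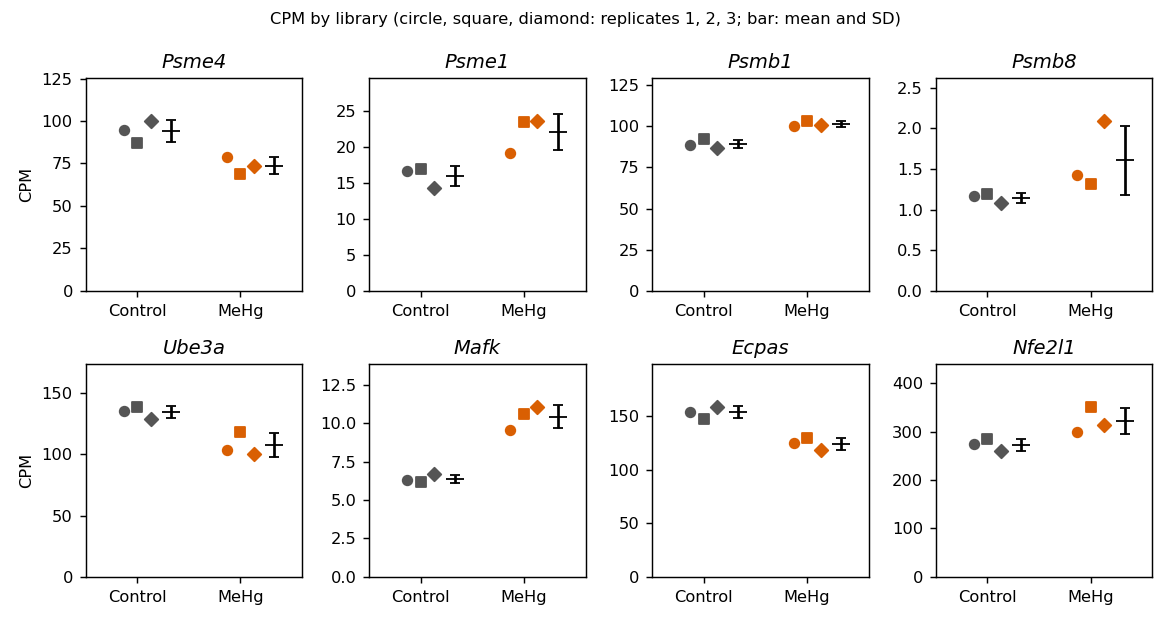
CPM by library for 4 proteasome genes (top) and 4 genes that act with them (bottom), with the mean and SD of 3 mice beside each group. Groups are apart in every panel; Psme4, Ube3a and Ecpas are lower after MeHg and the other 5 are higher, and Mafk and Ecpas were called.

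The ubiquitin ligases, conjugating enzymes and deubiquitinases were mostly below 0, with 7 of 20 above it (35.0%, against 51.1% of all genes tested and 41.6% of those of 4000 bp or more). None was called by edgeR, and 8 were under an unadjusted p of 0.05 (40.0%, against 24.5% of all genes). Usp7 measured 226, 235 and 231 CPM in controls and 198, 205 and 195 CPM in MeHg libraries (−0.21 ± 0.06, adjusted p = 0.0743 by edgeR). Ube4b, which extends ubiquitin chains, measured 132, 135 and 145 CPM, then 120, 117 and 118 CPM (−0.22 ± 0.06, adjusted p = 0.0750). Uba6, a ubiquitin-activating enzyme, is in a separate list and not among these 20. It measured 42.0, 32.7 and 39.1 CPM, then 29.2, 29.7 and 29.7 CPM (−0.36 ± 0.10, adjusted p = 0.0879). In all 3 genes the groups were apart. The shuttle factors that bring substrates were close to level, with 7 of 12 above 0. Ubqln4 was at −0.14 ± 0.06 (adjusted p = 0.174), and Vcp, the segregase that extracts proteins from complexes, was at 0.05 ± 0.07.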

How the data were processed

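Per the labels, total RNA of the cerebellum was read in pairs by Illumina sequencing (NovaSeq). The submitters' processing notes name mm39 and DESeq2; the sources used here do not give an aligner, annotation or strand setting. The deposited table holds raw counts per gene, and the authors' second table holds FPKM, with group means not used here.

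Genes were kept by filterByExpr and scaled by TMM, and the 6 libraries were fitted together with edgeR 4.0.16 (R 4.3.3), group as the only term, adjusted over 16859 genes. The SE is the absolute log2 fold change over the square root of F. The script was tested on simulated data. Alternatives used DESeq2 1.42.0, limma 3.58.1, other scalings, filters and terms, loess offsets (span 0.5), and libraries left out. Lengths are those deposited, and GC content is that of GENCODE transcripts on GRCm39. Given in full were, per class, the 3 genes with the smallest p, the catalytic and immunoproteasome subunits and the extremes of FPKM, and per pathway list the 2 with the smallest p and all called, with fixed genes (Nfe2l1, Adrm1, Sem1, Pomp, Usp14, Uchl5, Ubb and Vcp); 1 called gene is not reported here. Other genes named were chosen after their values were seen. The members and lists were chosen with earlier results of these data known.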

Additional observations from a re-analysis of the deposited data

How the results depend on the processing

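All values in this paragraph compare MeHg with control. The number of all genes called was 398 and became 197 with upper-quartile scaling, 2378 with no filter on low counts, 609 with sex as labelled, 1714 with the Xist level as a term, 191 with totals without the 20 most abundant genes, 1723 without both libraries numbered 2, 1394 with DESeq2, 1653 at an adjusted p under 0.1 and 4132 at an unadjusted p under 0.05. It was 0 with the offset for length, 0 with length and GC content, and 0 with limma on log2 FPKM with 1 or 0.1 added. Leaving out 1 library gave 0 to 1091: 0 without control replicate 1, without control replicate 3 and without MeHg replicate 3, 2 without MeHg replicate 1, 220 without control replicate 2 and 1091 without MeHg replicate 2. Of the 398, 97 were higher and 301 lower, against 78 and 119 with upper-quartile scaling, 91 and 100 without the 20 most abundant and 1200 and 1178 with no filter. The number of proteasome genes called was 0 of 48, where 2.36% of all genes were called. It became 2 with no filter (7.38% of 32210 genes), 2 with the Xist level (10.2% of all genes) and 1 without both libraries numbered 2 (10.3%). It was 2 with DESeq2 (8.27%), 3 at an adjusted p under 0.1 (9.8%) and 7 at an unadjusted p under 0.05 (24.5%). When 1 library was left out it was 0 to 0, against 0% to 6.33% of all genes. At an adjusted p under 0.05 the proteasome genes called were Psme4, alone or with Psme1. Psmb1 joined them at 0.1, and Psmb4, Psmb10, Psmc5 and Psmc1 at the unadjusted p. With the replicate number as a block, 648 genes (3.84%) and 1 proteasome gene, Psme4, were called. Same-numbered control and MeHg libraries correlated at 0.21, 0.39 and −0.24, and differently numbered ones at −0.46 to 0.40. The labels give no link between equal numbers, and these values cannot decide whether the mice were paired.

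The median over the proteasome genes was 0.11, and 0.053 with the length offset, 0.050 with length and GC content and 0.17 with totals without the 20 most abundant genes, which moved the median of all genes to 0.06. Without 1 library it was 0.09 to 0.13, with 37 to 41 genes above 0. Genes with groups apart numbered 18 higher and 2 lower (13.9% and 15.5% of all genes). With upper-quartile scaling they were 22 higher and 1 lower (17.1% and 12.2% of all genes). Under totals without the 20 most abundant 1 was lower, as were 10.8% of all genes. They were 30 higher and 4 lower without both libraries numbered 2, where 2 mice a group make separation commoner (29.9% and 28.8% of all genes). Without 1 library they were 18 to 26 higher and 2 to 3 lower, against 16.3% to 21.8% and 17.8% to 22.4% of all genes. The median level was 18.8 FPKM and 19.9994 CPM per kilobase. Of the single genes, 12 values changed sign. The largest was that of Usp14 with length and GC content, at 0.0998 ± 0.09 (SE), and the rest were nearer 0. Usp14 was 0.00351 with the Xist level, 0.039 with the length offset, 0.013 without the 20 most abundant and 0.036 without MeHg replicate 3. Over libraries left out it was −0.14 to 0.036. Psma6 was −0.0041 with the length offset, Psmd2 was 0.0054 and Psme3 0.0032 without the 20 most abundant, Vcp was −0.0039 without control replicate 2 (to 0.11 over libraries left out), Psmg3 was −0.045 and Sem1 −0.0090 without MeHg replicate 3 (to 0.38 and 0.31 without MeHg replicate 2), and Psmd9 was −0.0073 without both libraries numbered 2. The causes were not tested. The median SE was 0.08 for the proteasome genes and 0.13 for all genes tested. Psmb8 and Psmg4 rest on counts of 15 to 31 and 27 to 101.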
